A study of Homo sapiens with 2 samples.

Results

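NRF-1 occupancy was examined at the promoters of the DNAJ co-chaperone genes, the protein-coding genes of GENCODE release 44 lifted to hg19 whose symbol begins with DNAJA, DNAJB or DNAJC. DNAJC19 was left out by the rule, so the family is not complete here. The rule gave 44 genes of 19820 coding genes, with 4 DNAJA, 12 DNAJB and 28 DNAJC members. A promoter was taken as 1 kb on either side of any coding transcript start, and a gene was counted as having a promoter peak where a called peak overlapped that window by at least 1 base. The rule used gene symbols only and no measured value.

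The chromatin came from U251, an established human glioblastoma cell line, in which AATF, a cofactor of RNA polymerase II, was silenced by transfection of an siRNA (siAATF) or left alone with a control siRNA (siControl). NRF-1 was immunoprecipitated by ChIPmentation, a chromatin immunoprecipitation in which a transposase adds the sequencing adapters. The sample labels gave U251, whereas the design text of the series gave U138, and the level of AATF after transfection was not analysed here. Each condition was represented by 1 MACS2 peak list with no replicate, so no difference between conditions was tested and every comparison is a description. There were 18014 peaks in siControl and 18454 in siAATF, and the number of reads behind them was not known.

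J-domain proteins bind HSP70 chaperones and stimulate their ATPase, which commits HSP70 to a client protein. DNAJA and DNAJB proteins share parts of the bacterial DnaJ layout, while DNAJC proteins share the J domain alone and act at particular places in the cell, such as the mitochondrial import channel, the endoplasmic reticulum, the ribosome or coated vesicles. NRF-1, a transcription factor, recognises a GC-rich palindrome in promoters, among them those of many nuclear genes for mitochondrial proteins.

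The sequences that carry the account are given first. The palindromic core searched was GCGCATGCGC, which reads the same on both strands, and a match was allowed up to 1 mismatch. The windows of 30 bases below are a selection of the matches in DNAJ promoter peaks, with both exact matches and 5 that differ in the mismatched base or position. They are written 5′ to 3′ on the strand of the gene in hg19, capitals mark the bases that match the core, and lower case inside the match marks the mismatch.
DNAJC5, chr20:62526388-62526417: ggctctctgaGCGCATGCGCagccggtccc
DNAJB6, chr7:157129621-157129650: agtggaaactGCGCATGCGCggcgtcaggg
DNAJC28, chr21:34863769-34863798: cggaccgcgcaCGCATGCGCagaggcgcgg
DNAJB9, chr7:108210101-108210130: tcgagcccctGCGCcTGCGCtagcattctg
DNAJA1, chr9:33025715-33025744: tggcgaccctGCGCAcGCGCacagggaggc
DNAJB11, chr3:186285156-186285185: cgtgcccactGCGCAaGCGCgaggccccgc
DNAJC3, chr13:96329085-96329114: tttgcagcctGCGCATGCGgactcggcggc

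Longer stretches of 150 bases, from 120 before to 30 after the start of the canonical transcript, are shown for 4 genes that differ in peak and core. DNAJA3 had a strong peak and 4 matches, DNAJC28 had the highest −log10 q of the family in siControl with 1 of its 2 matches in this stretch, DNAJC13 had a strong peak with no match, and DNAJA4 had neither a peak nor a match.
DNAJA3, chr16:4475749-4475898: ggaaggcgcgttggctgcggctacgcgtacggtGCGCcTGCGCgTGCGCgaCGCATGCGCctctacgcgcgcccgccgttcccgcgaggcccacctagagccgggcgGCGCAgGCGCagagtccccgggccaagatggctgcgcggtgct
DNAJC28, chr21:34863994-34864143: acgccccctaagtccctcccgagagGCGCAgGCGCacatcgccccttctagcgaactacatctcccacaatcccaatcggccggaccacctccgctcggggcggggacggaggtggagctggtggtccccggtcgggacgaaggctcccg
DNAJC13, chr3:132136226-132136375: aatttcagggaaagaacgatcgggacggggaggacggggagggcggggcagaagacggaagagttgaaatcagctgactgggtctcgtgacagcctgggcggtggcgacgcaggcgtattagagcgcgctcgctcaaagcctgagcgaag
DNAJA4, chr15:78556784-78556933: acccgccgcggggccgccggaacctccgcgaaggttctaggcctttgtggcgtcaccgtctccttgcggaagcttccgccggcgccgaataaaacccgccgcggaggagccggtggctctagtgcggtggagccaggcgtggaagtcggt

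Most DNAJ promoters carried an NRF-1 peak in siControl and in siAATF cells. A promoter peak was called at 35 of the 44 DNAJ genes in siControl (79.5%, exact Clopper-Pearson 95% interval 64.7% to 90.2%), where 61.0% of all coding genes had one. In siAATF 35 of 44 again had a peak, where 60.6% of all coding genes did. They were the same 35 genes, so 0 DNAJ genes had a peak in siControl alone, against 1.62% of all coding genes, and 0 in siAATF alone, against 1.17%. The 35 genes stood on 34 distinct peaks, because DNAJC25 and the read-through gene DNAJC25-GNG10 shared a peak. The intervals cover the counting of genes only, and neighbouring genes or shared peaks are not independent.

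The peaks of DNAJ genes were placed high in both lists. The −log10 q, the measure by which MACS2 scores a peak against its local background, had a median of 37.9 over the 35 DNAJ genes in siControl and 33.5 in siAATF, against 18.1 and 17.6 over all coding genes with a promoter peak. The fold enrichment over the local background had a median of 7.69 in siControl and 7.36 in siAATF, beside 6.73 and 6.48 for all coding genes. To place a peak within its own list, a percentile rank was given from 0 for the weakest peak to 100 for the strongest. By fold enrichment the median rank of the DNAJ peaks was 76.0 in siControl (95% interval 65.2 to 85.0) and 77.0 in siAATF (64.7 to 87.3). All coding genes with a peak had median ranks of 63.2 and 64.4. A rank of at least 90 by −log10 q was reached by 14 of the 44 DNAJ genes in siControl (31.8%) and by 12 in siAATF (27.3%), while 9.82% and 10.1% of all coding genes did so. No test was made of these differences from the remaining genes.

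**Figure D1:**
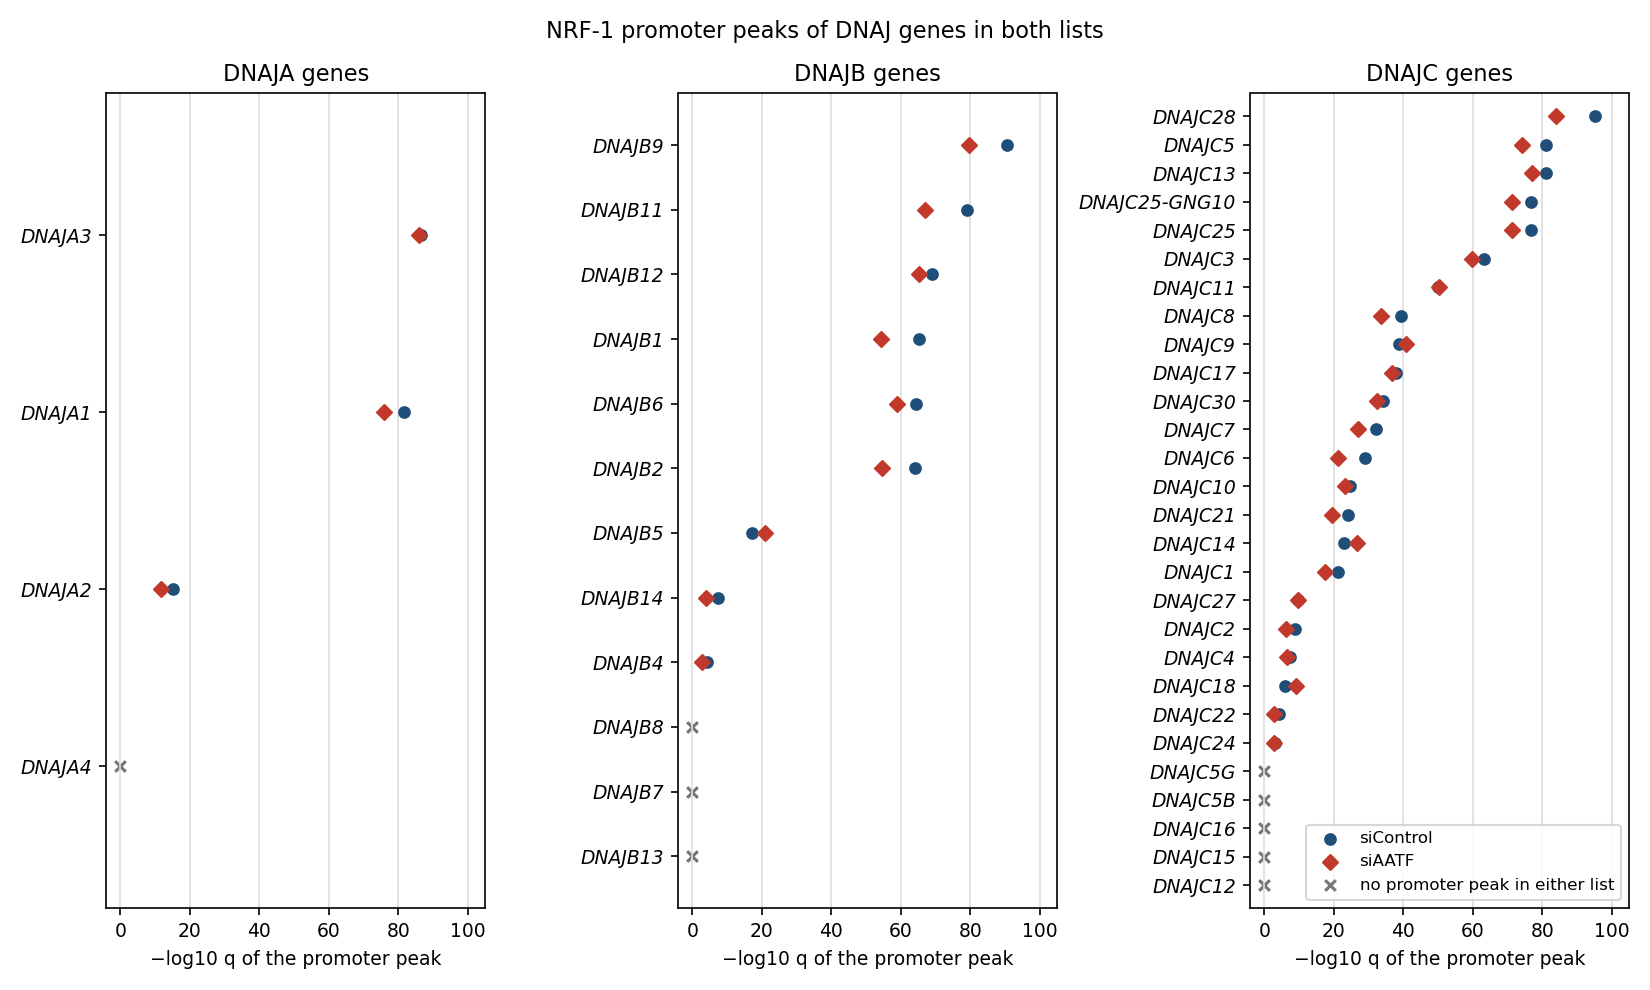
−log10 q of the promoter peak (x axis) of each DNAJ gene (rows) in the siControl list (circles) and the siAATF list (diamonds), 1 value per gene and list, with a cross at 0 for genes without a promoter peak. DNAJC28 stood highest in siControl at 95.2, and the 9 crossed genes had a peak in neither list.

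The subfamilies differed more in the −log10 q of the peaks than in the share of genes with a peak. Peaks were found at 3 of 4 DNAJA genes (75.0%), 9 of 12 DNAJB genes (75.0%) and 23 of 28 DNAJC genes (82.1%) in each list. Of all coding genes 61.0% in siControl and 60.6% in siAATF had one. The exact 95% intervals were wide, 19.4% to 99.4% for DNAJA, 42.8% to 94.5% for DNAJB and 63.1% to 93.9% for DNAJC. For DNAJA the median −log10 q was 81.8 (siControl) and 76.0 (siAATF), for DNAJB 64.4 and 54.7, and for DNAJC 32.1 and 27.1. The DNAJA medians rest on only 3 peaks, from 15.2 to 86.6 in siControl. By fold enrichment the order was another, with DNAJA lowest. Its median was 7.225 in siControl and 6.785 in siAATF, against 8.036 and 7.445 for DNAJB and 7.656 and 7.364 for DNAJC. Within DNAJA the order was DNAJA3, DNAJA1 and DNAJA2. DNAJB was led by DNAJB9 and DNAJB11 and ended with DNAJB14 and DNAJB4. The DNAJC genes spanned nearly the whole range, from DNAJC28 to DNAJC24.

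The 5 highest peaks by −log10 q in siControl lay at DNAJC28, DNAJB9, DNAJA3, DNAJA1 and DNAJC5. DNAJC28, assigned to mitochondria and little characterised, had a peak at chr21:34863324-34864427 with a −log10 q of 95.2 in siControl and 84.0 in siAATF, which placed it 120th and 160th among all coding genes with a promoter peak. Its fold enrichment of 7.66 and 6.85 was less extreme, with ranks of 75.5 and 69.8. DNAJB9, an endoplasmic reticulum co-chaperone of BiP that restrains the stress sensor IRE1, had a −log10 q of 90.5 in siControl and 79.8 in siAATF and was placed 227th and 299th. DNAJA3, the mitochondrial matrix partner of mortalin, had 86.6 and 86.0 and stood at place 369 in siControl and 112 in siAATF, while the highest value of the whole list was 116 in siControl and 104 in siAATF. DNAJA1, a cytosolic co-chaperone of HSC70, had 81.8 and 76.0. DNAJC5, the cysteine string protein of synaptic vesicles, had 81.0 and 74.1. By −log10 q all 5 had a rank of at least 90 in either list, whereas by fold enrichment DNAJA1 ranked 69.6 and 68.9 and DNAJC5 ranked 61.2 and 61.7, the last below the medians of all coding genes.

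At the other end stood DNAJC24, DNAJB4, DNAJC22, DNAJC18 and DNAJC4. DNAJC24, which takes part in making diphthamide on elongation factor 2, had a −log10 q of 3.23 in siControl, the lowest there, and 2.95 in siAATF. DNAJB4, a cytosolic relative of DNAJB1, had 4.23 and 2.66, the lowest in siAATF, and DNAJC22 had 4.26 and 2.77. DNAJC18, a membrane protein of the endoplasmic reticulum, had 6.04 and 9.24, and DNAJC4 had 7.47 and 6.44. These values were far below the DNAJ median in each list, and 3 of the 5 genes were under a −log10 q of 5 in siControl.

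Grouped by where the proteins act, peaks were found in every group but the germ line. The groups were small, and the exact 95% interval of each covered the share of all coding genes with a peak, 61.0% in siControl and 60.6% in siAATF. Among the genes for cytosolic co-chaperones 8 of 9 carried a promoter peak in each list, with −log10 q from 4.23 to 81.8 in siControl and from 2.66 to 76.0 in siAATF. DNAJB1, the stress-inducible HSP40, had 65.3 in siControl and 54.2 in siAATF. DNAJB6, which holds back aggregation of polyglutamine proteins, had 64.4 and 58.9. DNAJB2, a co-chaperone abundant in neurons, had 64.2 and 54.7 with a fold enrichment rank of 96.8 and 97.4, the highest of the cytosolic genes. The remaining cytosolic genes were lower. DNAJC7, which links HSP70 and HSP90 through tetratricopeptide repeats, had 32.1 and 27.1. DNAJB5 had 17.2 and 20.8, and DNAJA2 had 15.2 and 11.7.

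For the mitochondrial J proteins 5 of 6 genes had a peak, with a median −log10 q of 49.95 in siControl and 50.4 in siAATF. Beyond DNAJC28 and DNAJA3, DNAJC11, a protein of the cristae-organising complex, had these very values. DNAJC30, an interactor of the ATP synthase, had 34.3 and 32.5. DNAJC4 was the weak member of the group, and DNAJC15, of the inner membrane, had no promoter peak. Mitochondrial members were thus found at the top, in the middle and at the bottom of the DNAJ genes.

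The genes for endoplasmic reticulum J proteins had a peak in 9 of 10 cases, with a median −log10 q of 63.3 and 59.8. DNAJB11, a soluble BiP cofactor, had 79.1 in siControl and 67.0 in siAATF. DNAJC25 had 76.9 and 71.2 at chr9:114393131-114394085, and DNAJB12, a membrane-anchored co-chaperone in degradation of misfolded proteins, had 69.0 and 65.2. DNAJC3, which binds unfolded proteins in the lumen, had 63.3 and 59.8. Below these came the remaining members with much lower values. DNAJC10, a disulfide reductase with a J domain, had 24.6 and 23.2. DNAJC1 had 21.3 and 17.4. DNAJB14, the close relative of DNAJB12, had 7.53 and 3.95, far below its paralogue in both lists.

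All 6 genes of the group for ribosomal or nuclear J proteins had a peak, with a median −log10 q of 31.0 in siControl and 26.4 in siAATF. DNAJC8, a component of the spliceosome, had 39.3 in siControl and 33.5 in siAATF. DNAJC9, a histone chaperone, had 38.8 and 40.7, and DNAJC17, a nuclear protein linked to splicing, had 37.9 and 36.9. These were middling by −log10 q, whereas by fold enrichment DNAJC9 and DNAJC8 were high, at ranks of 96.4 and 95.7 in siControl. DNAJC21, a factor in maturation of the large ribosomal subunit, had 24 and 19.4. DNAJC2, the ribosome-associated J protein, had 8.87 and 6.37. DNAJC24, counted in this group though its part is in modifying elongation factor 2, was the lowest, at 3.23 and 2.95.

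Of the genes for vesicle and endosome J proteins 3 of 5 had a peak. DNAJC13, a regulator of endosomal sorting, had a −log10 q of 81.0 in siControl and 77.0 in siAATF and a fold enrichment rank of 95.9 and 97.5. DNAJC6, the neuronal uncoating factor auxilin, had 29.0 and 21.1 and the highest fold enrichment of all 35 genes in siControl, 10.1, against 7.95 in siAATF. The relatives of DNAJC5, DNAJC5B and DNAJC5G, had no promoter peak. In the group with other roles 4 of 5 genes had a peak. DNAJC14, a membrane J protein of receptor export, had 23.1 and 26.7. DNAJC27, a small GTPase with a J domain, had 9.78 and 9.84.

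**Figure D2:**
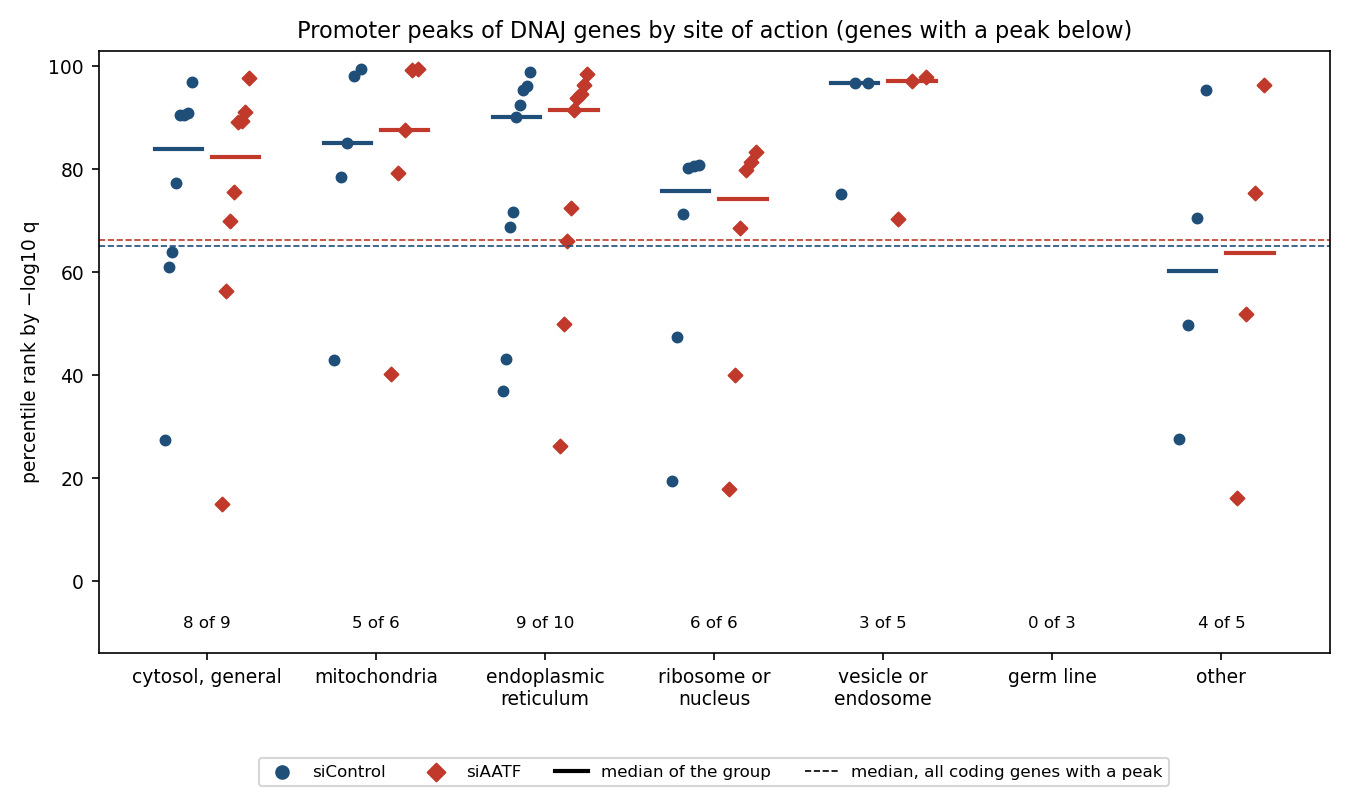
Percentile rank by −log10 q (y axis, 0 weakest, 100 strongest) of DNAJ promoter peaks grouped by where the proteins act, in siControl (circles) and siAATF (diamonds). Bars are group medians, dashed lines the medians of all coding genes with a promoter peak (65.2 in siControl, 66.2 in siAATF), and the germ line group had a peak at 0 of 3 genes.

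The 9 genes without a promoter peak in either list were DNAJA4, DNAJB7, DNAJB8, DNAJB13, DNAJC5B, DNAJC5G, DNAJC12, DNAJC15 and DNAJC16. DNAJB7, DNAJB8 and DNAJB13 make up the germ line group, expressed chiefly in testis. The nearest peak to a coding start of DNAJB7 lay 4817 bp away in siControl and 4822 bp away in siAATF. For DNAJB8 it was 20594 bp and 20621 bp away, and for DNAJB13 17323 bp and 17351 bp. These promoters were therefore well outside the called peaks.

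The DNAJC5 relatives DNAJC5B and DNAJC5G were in the same position. DNAJC5G lay 12188 bp from the nearest siControl peak and 12035 bp from the nearest siAATF peak. DNAJC5B had its nearest peak 4845 bp and 4834 bp away, inside the gene body, with a −log10 q of 12.6 and 11.7. DNAJC12, which binds the aromatic amino acid hydroxylases, was 46334 bp and 46326 bp from a peak. For DNAJC15 the nearest siControl peak was 31256 bp away and the nearest siAATF peak 750826 bp away. That siControl peak was weak, with a −log10 q of 1.92, and the siAATF peak had 11.05.

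DNAJC16 and DNAJA4 differed from these. DNAJC16, an endoplasmic reticulum J protein, missed the 1 kb window by little, with a peak 1588 bp away in siControl and 1471 bp away in siAATF, and it had a promoter peak when the window was widened to 2 kb. It lies 279 bp from the start of CASP9 on the opposite strand. DNAJA4, a cytosolic relative of DNAJA1, was 22846 bp and 33209 bp from the nearest peak although its start lies in a CpG-rich stretch.

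Base composition differed between DNAJ genes with and without a peak, much as it did across coding genes. Over 500 bp on either side of the canonical start, the median GC content was 64.8% for the 35 DNAJ genes with a peak and 55.5% for the 9 without, and the ratio of observed to expected CpG was 0.81 and 0.32. For all coding genes the GC content was 64.6% with a peak in both lists and 53.9% with a peak in neither, and the CpG ratio was 0.80 and 0.32. DNAJA4 was apart from the other genes without a peak, with a GC content of 73.9% and a CpG ratio of 0.88. DNAJC16 and DNAJC15 had CpG ratios of 0.73 and 0.67. The other 6 genes without a peak had CpG ratios of at most 0.43. DNAJB4 had a GC content of only 37% around its canonical start, but no peak lay there. Its weak peak was near another start, 24.8 kb away, where base composition was not measured. The part of base composition in the calls was not tested.

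The median change in rank of DNAJ promoter peaks between the lists was small, while changes at single genes ran from −21.1 to 18.3 points by fold enrichment. Fold enrichment is relative to the background of each library, so ranks and not values were set against each other. Over the 35 genes with overlapping promoter peaks the rank by fold enrichment in siAATF minus that in siControl had a median of −0.44 (95% interval −2.76 to 0.99), and it was lower in siAATF at 20 genes and higher at 15. For 11612 coding genes with such a pair the median was 0.20. The median size of the change regardless of sign was 4.37 points for DNAJ genes and 5.08 points for all coding genes. When peaks were ranked by −log10 q the DNAJ median was 0.45, with 17 genes lower and 18 higher, and the median of all coding genes was 0.47. The sign of the DNAJ median thus depended on the measure.

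A change of over 20 percentile points was seen at 1 DNAJ gene towards a lower rank, against 2.82% of all coding pairs, and at 0 towards a higher rank, against 3.6%. The gene was DNAJB14, which went from a fold enrichment of 4.48 and a rank of 27.4 in siControl to 3.43 and 6.28 in siAATF, a change of −21.1. The next lowest differences were −15.2 at DNAJB4, with ranks of 33.2 and 18.0, and −12.5 at DNAJC6, with ranks of 97.8 and 85.3. DNAJB14 and DNAJB4 were low in both lists by either measure, whereas DNAJC6 was high by fold enrichment and below the DNAJ median by −log10 q.

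The highest difference, 18.3 points, was at DNAJC18, from a fold enrichment of 5.24 and a rank of 41.1 in siControl to 6.16 and 59.4 in siAATF. DNAJC17 was 12.8 points higher in siAATF, with ranks of 61.2 and 74.0, and DNAJC14 was 12.5 points higher, with 75.2 and 87.6. Under the ranking by −log10 q, DNAJB14 changed by −16.9 points, so no DNAJ gene passed 20 points by that measure. Without replicates it cannot be said whether any of these changes exceeds the spread between libraries of the same condition.

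The fold enrichment itself was lower in siAATF at 29 of the 35 DNAJ genes (82.9%), and at 69.5% of all coding pairs. The median log2 ratio of siAATF to siControl was −0.08 for the DNAJ genes and −0.06 for all coding pairs. Since the values of the whole siAATF list were lower, with a median of 5.59 over all peaks against 5.82 in siControl, a difference in NRF-1 binding and a difference in depth or background between the libraries cannot be told apart here.

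**Figure D3:**
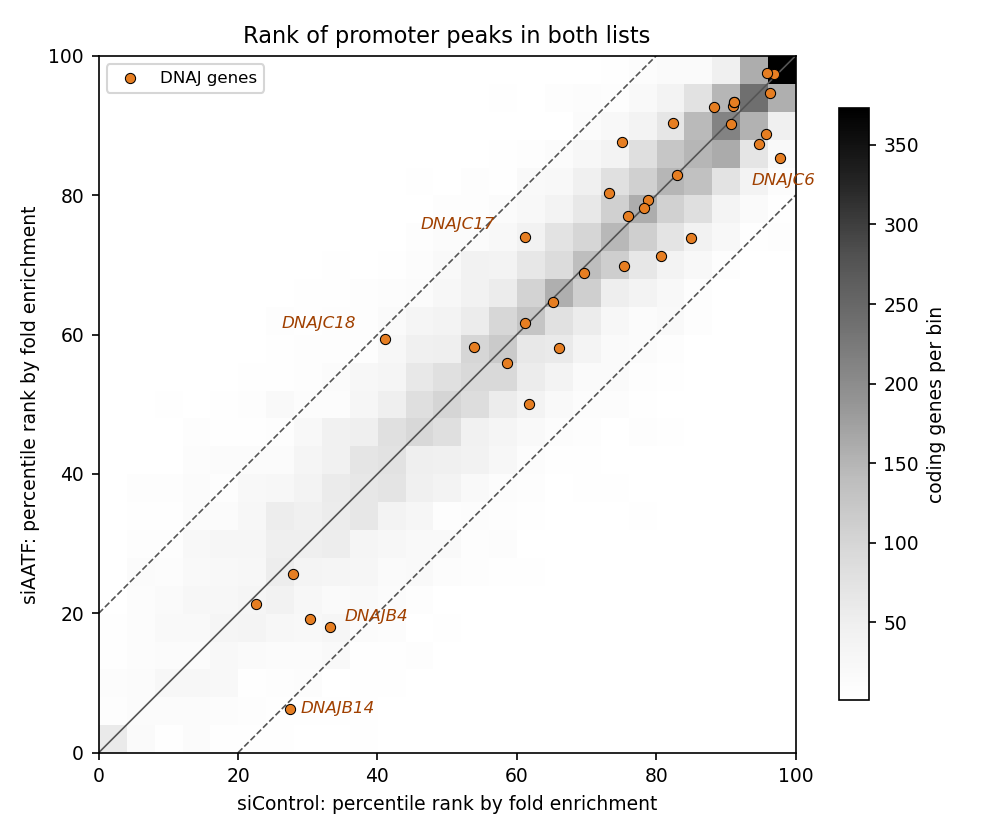
Percentile rank by fold enrichment of promoter peaks in siControl (x axis) and siAATF (y axis). Grey squares count 11612 coding genes, orange points are the 35 DNAJ genes, the solid line marks equal rank and dashed lines a change of 20 points, which only DNAJB14 passed among DNAJ genes.

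NRF-1 cores were held by 15 of the 35 DNAJ promoter peaks in siControl (42.9%, exact 95% interval 26.3% to 60.7%) and by 15 in siAATF, with up to 1 mismatch. Of all coding promoter peaks 24.2% in siControl and 24.4% in siAATF held one. Peaks were counted once per gene, so the peak shared by DNAJC25 and its read-through gene counts for both. The exact core was in 2 of 35 DNAJ peaks (5.71%), those of DNAJB6 and DNAJC5 printed above, against 3.95% in siControl over all coding genes. With 2 mismatches allowed, 24 of 35 DNAJ peaks (68.6%) and 67.6% of all coding promoter peaks matched, so at that setting the shares were close. In the 300 bases from 250 before to 50 after the canonical start, 9 of 44 DNAJ genes (20.5%) and 10.6% of coding genes held a core.

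DNAJ peaks with a core were higher than those without. The −log10 q in siControl ran from 23.1 to 95.2 with a median of 76.9 over the 15 peaks with a core, and from 3.23 to 81.0 with a median of 19.2 over the 20 peaks without. In siAATF the medians were 67.0 and 18.4. All coding promoter peaks had medians of 66.5 with a core and 12.3 without in siControl, so the DNAJ genes shared a difference seen across the genome. Wider peaks also have more room for a match, and the median width of DNAJ peaks was 1050 bp with a core and 787 bp without in siControl. The part of width was not tested.

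The matches differed in place and in the base that was changed. Positions are counted from 1 at the 5′ end of the core on the gene's strand, with the base of the core written before the position and that of the genome after it. DNAJA3 carried 4 matches, A5C, A5G, G1A and T6G in the order of the stretch printed above, of which the first and the next overlap. They lay within 20 bp of a coding start. DNAJC28 carried 2 matches, G1A at chr21:34863779-34863788 and T6G at chr21:34864109-34864118. DNAJB1 had 2 matches, A5C and G3A, and the remaining genes had 1 each.

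Of 17 distinct sites with 1 mismatch at DNAJ genes 12 (70.6%) had it in the middle pair of bases, positions 5 and 6, as did 71.0% of 2862 sites at all coding genes. The change A5C, or T6G, which is the same change read on the other strand, made up 8 of the 17, at DNAJB1, DNAJB9, DNAJC11, DNAJC17, DNAJC25, DNAJC28 and, with 1 site of each kind, DNAJA3. At all coding genes 41.2% of the sites were of this kind. DNAJB11 had T6A, DNAJA1 had T6C, DNAJC14 had A5G, DNAJC9 had C4G and DNAJC3 had C10G. A match is a description of the letters and not a measured binding site.

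Several strong DNAJ peaks had no match. DNAJC13, DNAJB12 and DNAJB2, with −log10 q of 81.0, 69.0 and 64.2 in siControl, had none with up to 1 mismatch. The nearest word had 2 mismatches in the peaks of DNAJC13 and DNAJB12 and 3 in that of DNAJB2. Among the 5 lowest peaks the nearest word had 2 mismatches at DNAJC4, 3 at DNAJB4, DNAJC22 and DNAJC18, and 4 at DNAJC24.

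**Figure D4:**
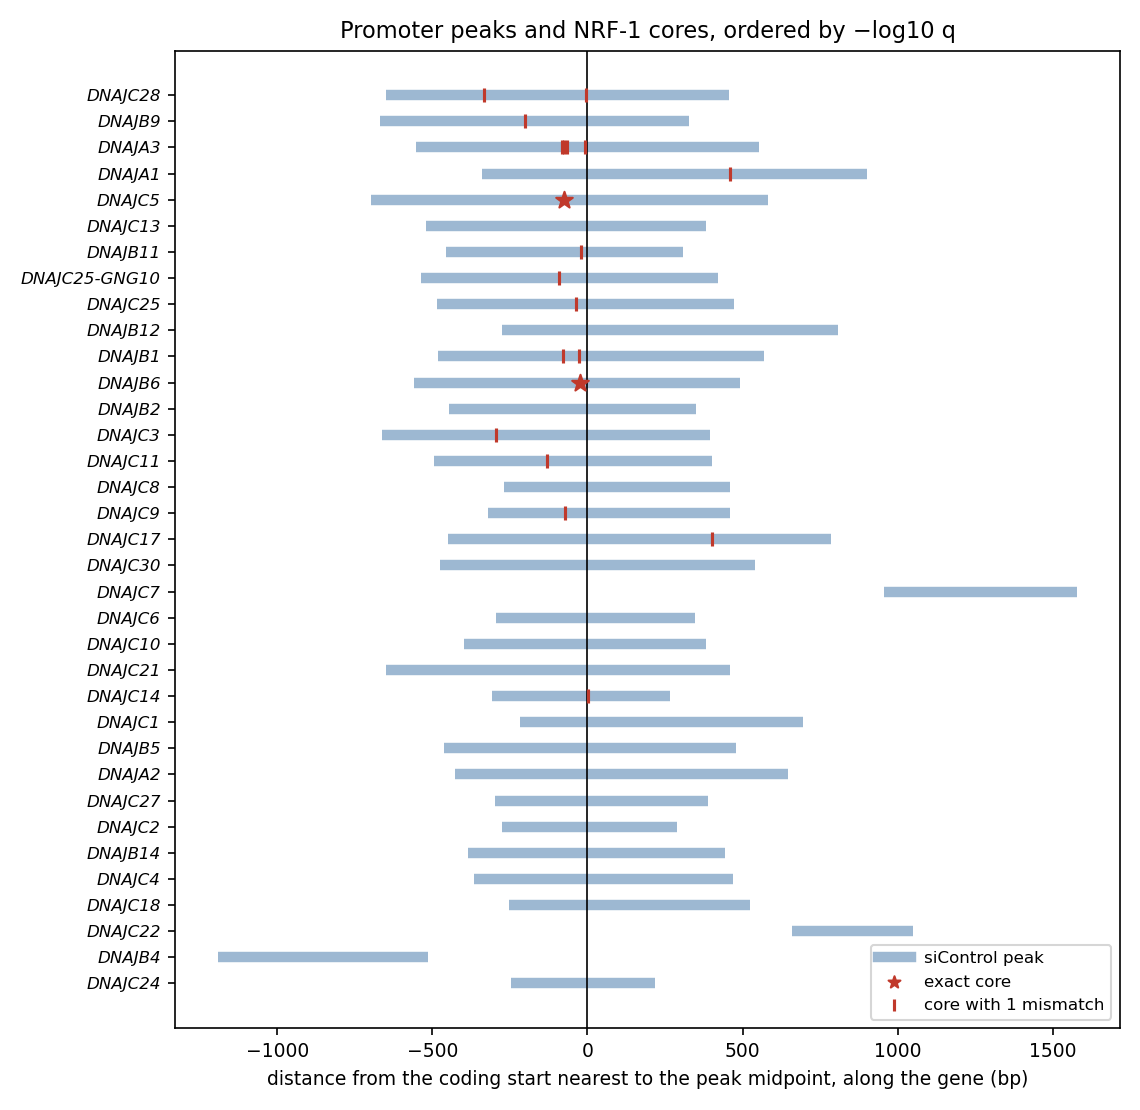
Extent of each siControl promoter peak (bars) and its cores (stars exact, ticks with 1 mismatch) in bp from the coding start nearest to the peak midpoint, along the gene, ordered from the highest −log10 q. Peaks with a core had a −log10 q of at least 23.1 (DNAJC14), and 32 of the 35 bars cover a coding start.

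Most DNAJ promoter peaks covered a transcript start. Closeness to a start is in part built in, because peaks were taken within 1 kb of any coding start. The same counts were not made for all coding genes. In each list 32 of 35 covered a coding start of their gene, and 28 covered the start of the canonical transcript. The median distance of the midpoint from the nearest coding start came to 58 bp (siControl) and 54 bp (siAATF). The exceptions in siControl and siAATF alike were DNAJC7, DNAJB4 and DNAJC22. In DNAJC22 the midpoint lay 854 bp downstream of a start in siControl, and in DNAJB4 it lay at −852 bp from a start that is 24.8 kb from the canonical start.

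For several genes the peak marked an alternative start. The strongest peak of DNAJB1 lay at a start 11.4 kb upstream of the canonical start and beside TECR, whereas the peak at the canonical start had a −log10 q of 57.5 in siControl and 41.1 in siAATF. In DNAJC6 the strongest peak lay at a start 55.1 kb from the canonical start, where the peak had a −log10 q of 6.30 and 4.01. In DNAJB11 it lay at a start 3.32 kb upstream, beside TBCCD1, and the canonical start had only a peak of 1.55 in siControl and none in siAATF. DNAJC7, a neighbour of NKIRAS2, differed in that its strongest peak covered no coding start of the gene. In siControl the midpoint of that peak lay 1266 bp from the nearest start. The canonical start of DNAJC7 had a weak peak of 4.31 in siControl and 7.16 in siAATF. The values given for these genes thus describe the promoter region with the strongest peak and not every start.

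Some of the peaks were shared with a neighbouring gene. A coding start of another gene lay within 1 kb of that of 14 DNAJ genes, of which 12 had a peak. Apart from the DNAJC25 pair, these neighbours stood on the opposite strand, such as APTX beside DNAJA1 at 155 bp, CORO7 beside DNAJA3 at 100 bp, THAP5 beside DNAJB9 at 124 bp and BUD23 beside DNAJC30 at 144 bp. With such a neighbour the −log10 q had a median of 71.1 in siControl and 60.6 in siAATF, and without it 24.6 and 23.2. A core was in the peak of 8 of the 12 genes with a neighbour and of 7 of 23 without. These 12 genes stood on 11 distinct peaks. DNAJC25 and DNAJC25-GNG10, each counted as the neighbour of the other, share 1 peak and its core, which enter the median and the count once for each gene. To which of the paired genes a peak belongs cannot be told apart from these lists. The same split was not made for all coding genes, so it is not known whether these differences are particular to DNAJ genes.

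The partners of the J proteins were examined as 37 genes for HSP70 proteins, nucleotide exchange factors, HSP70 and HSP90 cofactors and J proteins of other names. A promoter peak was called at 33 in siControl (89.2%) and 32 in siAATF (86.5%), where 61.0% and 60.6% of all coding genes had one. The median −log10 q was 38.6 and 40.2, near the DNAJ values. The highest were HSP90AA1, the inducible HSP90, at 94.4 and 87.0, BAG4, a nucleotide exchange factor, at 92.1 and 81.4, and HSPA8, the constitutive HSC70, at 88.7 and 88.2. HSPA1A, HSPA1B, HSPA1L and BAG6 had a peak in neither list. They lie in a stretch of chromosome 6 where 0 of 93 coding genes had a promoter peak in either list. HSPA12B had a weak peak in siControl alone. Changes of over 20 points in rank by fold enrichment occurred at HSPA5, which encodes BiP (−31.8), at HSP90AB1 (−26.4) and at HSPA2 (26.9). That is 2 lower and 1 higher of 32 partner pairs, beside 2.82% lower and 3.6% higher over all coding pairs. The peaks of HSPA5 and HSPA2 were weak, with a −log10 q of 5.32 and 1.85 in siControl and 2.03 and 4.10 in siAATF. HSP90AB1 had 21.2 and 9.04. Without replicates these changes cannot be set against the spread between libraries. BiP is the partner of DNAJB9 and DNAJB11, whose own ranks changed by −0.50 and −7.50. Over the 9 endoplasmic reticulum J protein genes with a peak the median change was 0.99, with 4 genes lower and 5 higher in siAATF.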

How the data were processed

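NRF-1 ChIPmentation peaks from U251 cells were analysed as 1 list for siControl and 1 for siAATF. Per the study's methods and the submitters' processing notes, the authors aligned reads to hg19 with Bowtie2 and called broad peaks with MACS2 in an ATAC-seq pipeline with its defaults. No input or IgG was named, and the labels speak of duplicates without saying whether they were pooled. The positions, the fold enrichment (a ratio to the local background), the −log10 p, the −log10 q and the display score are MACS2 output as deposited by the authors. The score and the −log10 p were not used. Weak peaks were kept in the lists, with −log10 q from 1.03 in siControl and 1.02 in siAATF. Read depth was unknown, and since transposase pipelines may shift reads, peak edges are approximate.

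Promoters came from GENCODE release 44 lifted to hg19, and sequence from the GRCh37 assembly. No siControl or siAATF peak ended beyond a chromosome of that assembly, and 132 and 122 peaks on other contigs were left out of the promoter work. With several peaks at a promoter, that of the highest −log10 q was taken. Intervals were exact Clopper-Pearson 95% for shares and binomial order statistics for medians. The genes described in full were the 5 highest and 5 lowest by −log10 q in siControl, those without a peak in a list, the 3 largest rises and falls in rank and those with an exact core, and partner genes were named by the 3 highest, those without a peak and, added after their values were seen, those past 20 points. The members, role groups and partner list were chosen with earlier results of these data known. DNAJB3 was in the role list but is not a coding gene in this annotation. The counting of peaks, ranks and cores was tested on simulated data. Python 3.11.15, numpy 2.4.6, scipy 1.17.1, pandas 2.3.3, pysam 0.24.0 and matplotlib 3.10.9 were used. Coordinates are 1-based. No test between conditions was made.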

Additional observations from a re-analysis of the deposited data

How the results depend on the processing

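Of 54 values computed under 13 alternative settings for 9 results, 47 stayed within the interval of the main value or the same count and 7 moved. The 7 were the number of DNAJ promoters changing by over 20 points and the share with a core. When peaks under a −log10 q of 5 were dropped, the number of DNAJ promoters that changed upwards became 1 and downwards 0, and when peaks were ranked by −log10 q the number downwards became 0. The core share was 5.71% in each list for the exact core and 68.6% in each list with 2 mismatches. The median change in rank turned from −0.44 to 0.45 when peaks were ranked by −log10 q. The share of DNAJ genes with a promoter peak ran from 65.9%, with the 10000 strongest peaks in siControl, to 81.8%, both within the main interval. With a −log10 q of at least 5 it was 72.73% in siControl and 70.45% in siAATF, where 51.4% of all coding genes had such a peak in each list. The share of all coding genes was not computed under the other settings. Leaving out the read-through gene, allowing 2 mismatches, and canonical starts for the ranks, changes and cores were chosen after seeing the data. No paired analysis was possible because each condition had 1 list. Read depth and the spread between libraries were unknown, so weak peaks near the calling threshold and small changes in rank are the least certain.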

Other observations

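The 4 partner genes without a peak in either list, HSPA1A, HSPA1B, HSPA1L and BAG6, lie close together on chromosome 6. Within 1 Mb of the start of HSPA1A neither list held a peak on the main chromosome 6 sequence, and 0 of the 93 coding genes there had a promoter peak, against 61.0% of all coding genes in siControl. The lists also held peaks on the alternative haplotype sequences of chromosome 6 that come with hg19, 16 in siControl and 18 in siAATF. Whether reads from these genes were placed on those sequences or dropped for matching several of them was not tested. The median CpG ratio of the 4 promoters was 0.76, against 0.85 for the partner genes with a peak in both lists and 0.32 for the 9 DNAJ genes without a peak. No DNAJ gene examined here lies on chromosome 6.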
